A study of Homo sapiens with 6 samples.

Results

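The cytosolic ribosomal proteins and their paralogs were examined in H69AR cells 3 days after transfection of siCtrl or siTREX1. The genes were taken by symbol, as every listed gene named RPL or RPS with a number and, where present, the ending A, X, L, L1 or AL, together with RPLP0, RPLP1, RPLP2 and RPSA, and pseudogenes were left out. The rule gave 85 of the 27852 genes listed, of which 43 encode proteins of the large subunit, 31 proteins of the small subunit (RPSA included) and 3 proteins of the P stalk, and 8 are paralogs (RPL3L, RPL7L1, RPL10L, RPL22L1, RPL26L1, RPL36AL, RPL39L and RPS27L).

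H69AR is an adriamycin-resistant derivative of the small cell lung cancer (SCLC) line H69, described in the paper as non-neuroendocrine. All 6 libraries come from this single line. In the study, TREX1, a cytoplasmic DNA exonuclease, was depleted in chemoresistant SCLC cells to ask how they respond when cytoplasmic DNA is not degraded. Total RNA of cells given siCtrl or siTREX1 (siRNA #1) was sequenced from directional libraries, 3 per group, and the files hold estimated counts of 1 transcript per gene symbol. Totals over named genes ran from 16329106 to 22482687 per library. For TREX1 itself, siCtrl replicates held 506, 513 and 509 estimated counts, and the siTREX1 replicates 594, 298 and 301. Scaled to library size, TREX1 had 22.72, 31.53 and 24.72 CPM with siCtrl and 28.44, 16.02 and 18.18 CPM with siTREX1. Replicate 1 of siTREX1 thus lay within the siCtrl range, and replicates 2 and 3 lay below it. The difference did not pass the test (log2 fold change -0.33 ± 0.24 SE, adjusted p = 0.349 from edgeR). Since replicate 1 was not lower, the siTREX1 replicates are called the libraries labelled siTREX1. The counts called among the ribosomal genes and the lists on translation are also given without replicate 1. Of the 13 markers listed for neuroendocrine SCLC, 7 passed the filter on low counts. The list summed to 828 to 855 CPM over the siCtrl libraries and 904 to 979 CPM over those labelled siTREX1. Most of this sum came from 1 gene with a mean of 665 CPM. Among the listed markers, SCG2 was higher (from 96.5 to 172 CPM) and DLL3 lower (from 26.3 to 19.4 CPM), while NEUROD1 and CHGA had 0 to 3.35 estimated counts. Of 11 tested markers of non-neuroendocrine SCLC, 5 were higher and 1 lower, against 17.8% and 15.5% of all tested genes. VIM, which encodes vimentin, stood at 2501 ± 1.83 (SD, n = 3) CPM (counts scaled to a common library size) with siCtrl. Separate cultures per library are not stated, and the p-values reflect only how far these libraries vary, which may be a technical spread.

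Ribosomal proteins assemble with rRNA into the small subunit, which reads the mRNA, and the large subunit, which forms the peptide bond, and the P stalk of the large subunit recruits the elongation factors. Their mRNAs are among the most abundant of a dividing cell, and most start with a 5′ terminal oligopyrimidine (TOP) motif, a C at the first transcribed base followed by a run of pyrimidines. In mammalian cells, LARP1 and the kinase mTORC1 act through this motif on the translation and stability of these mRNAs together.

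To show this shared feature, the first transcribed bases were read from the RefSeq promoter windows (GRCh38.p14), which held 68 of the 85 genes. The motif searched was a C at the annotated start followed by at least 4 further bases that are each C or T, on the transcribed strand only. It was found for 47 of the 68 genes, or 69.1%, against 1404 of 27305 symbols, or 5.14%, in the whole promoter table. Of the 6 paralogs in the table, 1 (RPL22L1) carried it. Each sequence below runs from 10 bases before the start over 30 bases, with the pyrimidine run from the first transcribed base in capitals. The first 5 belong to genes that were lower in the libraries labelled siTREX1.
RPS14 (chr5:150449720-150449749, minus strand): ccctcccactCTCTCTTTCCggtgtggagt
RPL13A (chr19:49487598-49487627, plus strand): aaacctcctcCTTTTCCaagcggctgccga
RPL12 (chr9:127451387-127451416, minus strand): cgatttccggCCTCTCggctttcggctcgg
RPS21 (chr20:62387093-62387122, plus strand): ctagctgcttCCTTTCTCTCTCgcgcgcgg
RPL41 (chr12:56116623-56116652, plus strand): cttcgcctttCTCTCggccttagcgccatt

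The next set shows the 4 genes that were higher there, of which RPL22L1, RPL26 and RPL21 carry the motif and RPL7L1 does not. RPL22 is shown as the partner of RPL22L1, and RPS27L as a further paralog without the motif. Windows without it have no capitals.
RPL22L1 (chr3:170870176-170870205, minus strand): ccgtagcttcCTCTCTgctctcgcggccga
RPL22 (chr1:6199576-6199605, minus strand): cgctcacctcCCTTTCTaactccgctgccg
RPL26 (chr17:8383174-8383203, minus strand): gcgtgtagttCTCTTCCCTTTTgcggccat
RPL21 (chr13:27251548-27251577, plus strand): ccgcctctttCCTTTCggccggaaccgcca
RPL7L1 (chr6:42879606-42879635, plus strand): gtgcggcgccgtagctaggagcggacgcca
RPS27L (chr15:63157458-63157487, minus strand): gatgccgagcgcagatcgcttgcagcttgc

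Many ribosomal protein mRNAs were slightly lower in the libraries labelled siTREX1 than with siCtrl, and few were higher. Of the 85 genes, 82 passed the filter on low counts. Of these, 34 were lower and 4 higher at an adjusted p under 0.05 (quasi-likelihood test of edgeR, Benjamini-Hochberg adjusted across all genes tested), and 44 were not called. Over all 13221 tested genes, 15.5% were lower and 17.8% higher. The 82 genes had a median log2 fold change of -0.08, a difference of -5.47%, and all tested genes of -0.02. The log2 fold change was negative for 70 of the 82, and it ran from -0.23 to 0.39. All libraries labelled siTREX1 lay below all siCtrl libraries for 47 of the 82 genes and above them for 5, against 25.2% and 25.3% of all tested genes. Without siTREX1 replicate 1, 24 were lower and 5 higher, with the median log2 fold change again at -0.08. In that fit, 1566 of all 13548 tested genes were lower and 1894 higher. Fewer genes were thus called than with all 6 libraries, and the other counts given without this replicate come from the same fit.

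**Figure D1:**
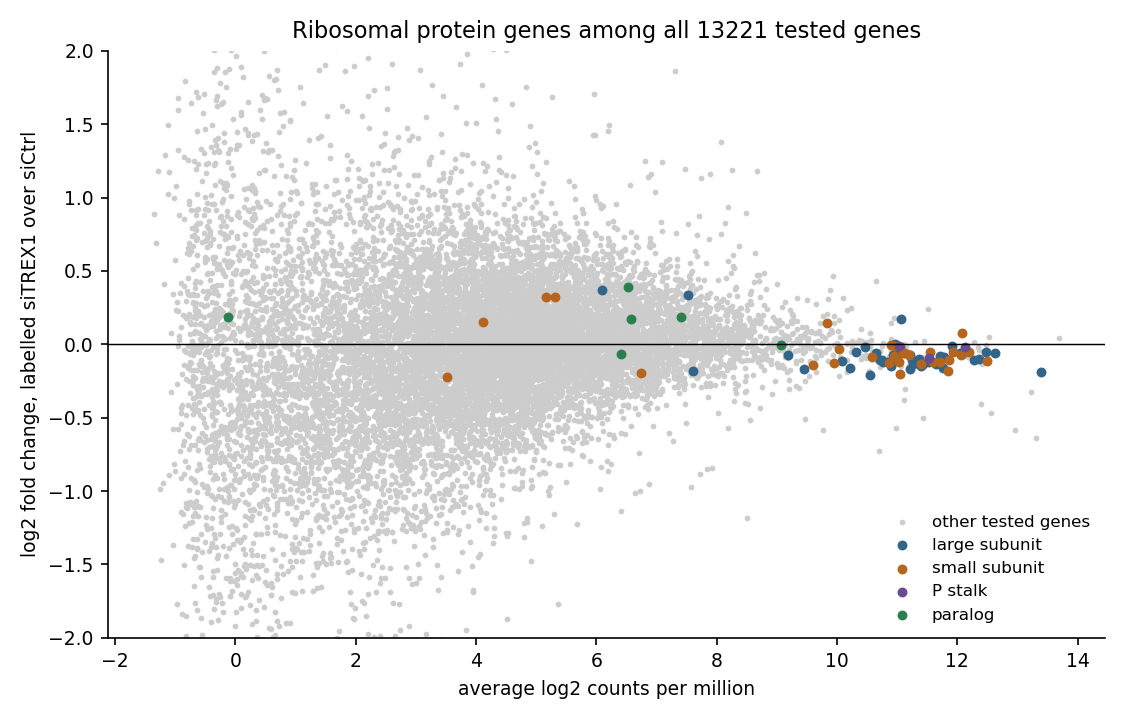
Log2 fold change (libraries labelled siTREX1 over siCtrl) against the average log2 CPM of each of the 13221 tested genes, with the ribosomal protein genes coloured by class, the paralogs in green and other genes in grey, of which 215 lie beyond the axis limits of 2. Most coloured points sit at the high end of the level axis and just under the line at 0.

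The small differences could be called because the genes are abundant and were measured closely. The median standard error of the log2 fold change was 0.028 over the 82 genes and 0.111 over all tested genes, and the median coefficient of variation within siCtrl was 2.15%. Genes of like abundance therefore form the closer comparison. Of the 63 genes with a mean of at least 1000 CPM, 33 were lower and 0 higher in edgeR (42 and 0 at an unadjusted p under 0.05 and in DESeq2, 37 and 0 in limma-voom). The counts were 23 and 0 without siTREX1 replicate 1. Of the 71 other tested nuclear genes at that level, 23.9% were lower and 12.7% higher. The 63 had a median log2 fold change of -0.09 and the 71 of -0.01. The shift was present in each library. Relative to the siCtrl mean, the median log2 level of the 63 genes was -0.08, -0.09 and -0.10 in replicates 1, 2 and 3 labelled siTREX1, with 61, 58 and 56 of the 63 below it. Each siCtrl library was set against the mean of the other siCtrl libraries, and there the median ran from -0.0048 to 0.00045.

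As a share of all counts, the 85 genes took 19.4%, 19.5% and 19.5% in the siCtrl libraries and 18.5%, 18.6% and 18.6% in those labelled siTREX1. The means were 19.46% ± 0.059 and 18.57% ± 0.058 (SD, n = 3 each), a difference of -0.897 percentage points, with no overlap between groups. In bulk RNA, fewer cells that express a gene and less of its RNA per cell cannot be told apart. The share is relative, and the 13 mRNAs of the mitochondrial genome moved with it, from 6.12% ± 0.220 to 4.46% ± 0.518 of the counts (SD, n = 3 each). Of the counts outside the mitochondrial genome, the 85 genes took 20.73% ± 0.027 and 19.43% ± 0.047 (SD, n = 3 each), so that the difference was larger, -1.30 points, without those mRNAs. Without siTREX1 replicate 1 the difference was -0.865 points of all counts and -1.32 points outside the mitochondrial genome.

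**Figure D2:**
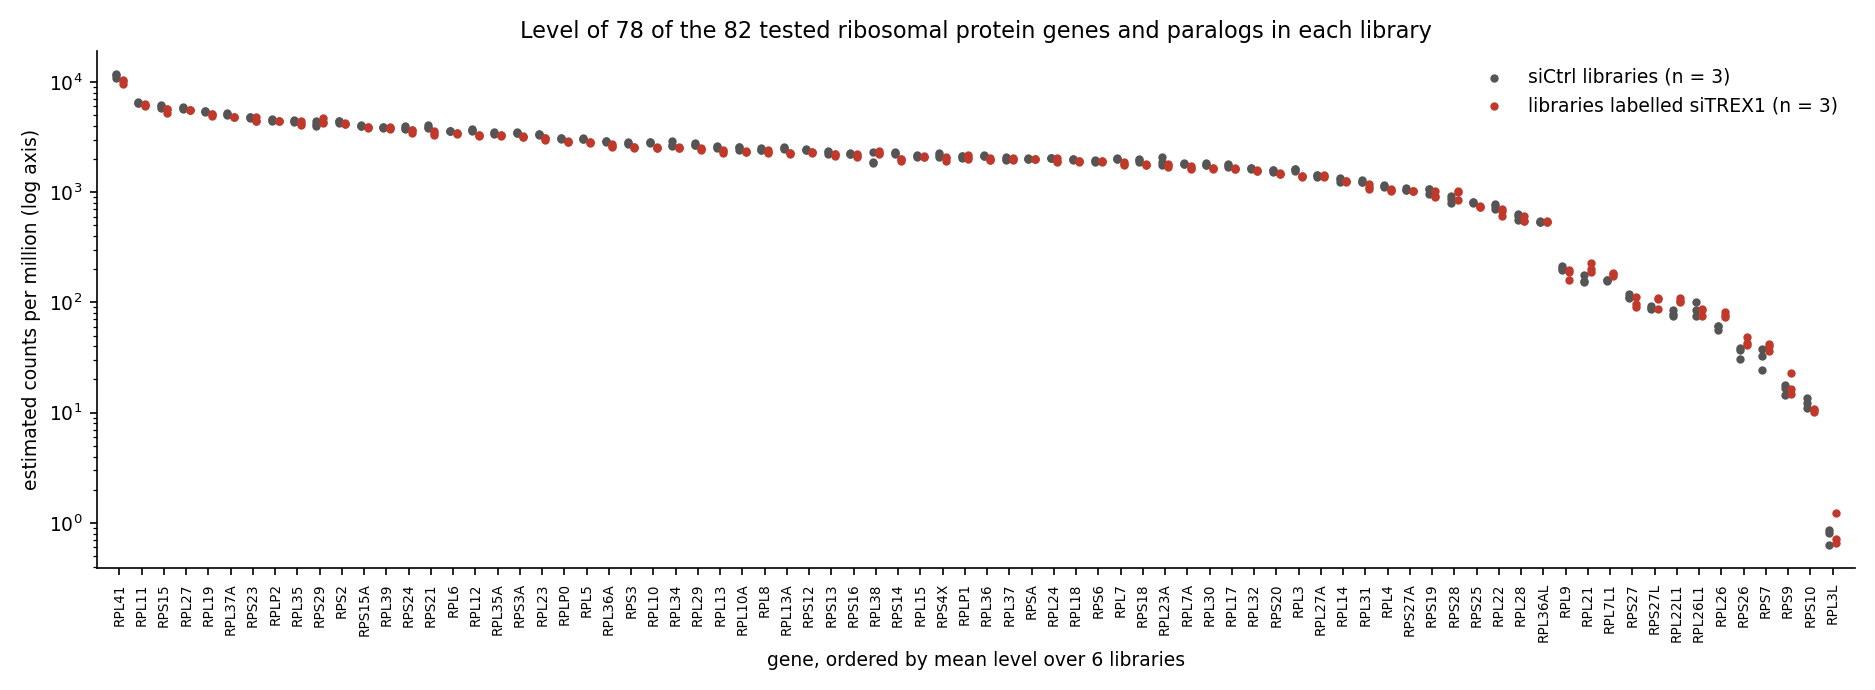
Level of 78 of the 82 tested genes in CPM (log axis), ordered by mean over the 6 libraries, with siCtrl libraries in grey and libraries labelled siTREX1 in red (n = 3 each). Of the 78 genes drawn, 59 lie at 1000 CPM or more, with RPL41 above all others, and 19 lie under 1000 CPM.

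A ribosome holds most of these proteins in equal number, but the levels of the listed transcripts differed widely. Over the tested genes they ran from 0.82 CPM for RPL3L, a paralog, to 10736 CPM for RPL41 (means of all 6 libraries). Outside the paralogs, the lowest gene with a transcript of the protein-coding type listed was RPS7, at 35.6 CPM. The deposited counts do not depend on transcript length, so levels can be compared between listed transcripts, which need not stand for the whole gene. RPL41, the shortest ribosomal protein, was the highest, with 11670, 11729 and 10910 CPM in siCtrl and 10362, 10261 and 9486 CPM in the libraries labelled siTREX1. All 3 of the latter lay below the former (log2 fold change -0.19 ± 0.04 SE, adjusted p = 0.0202 from edgeR). That call was lost without siCtrl replicate 1 (adjusted p = 0.0690 from edgeR) or 2 (0.0719). RPL11 followed with 6475, 6524 and 6440 CPM against 6329, 6071 and 6225 CPM. RPS15, a protein of the small subunit head, had 6006, 6138 and 5852 CPM against 5714, 5684 and 5244 CPM, without overlap and without a call (log2 fold change -0.11 ± 0.04 SE, adjusted p = 0.0662 from edgeR). RPS15 was called lower in DESeq2 (adjusted p = 0.0193), with at least 10 counts in all 6 libraries (0.0476), with coding transcripts only (0.0483) and under the replicate block (0.0360), and its log2 fold change was 0.03 after removal of a GC trend. RPL27 had 5878, 5734 and 5749 CPM against 5561, 5598 and 5588 CPM, and in siCtrl its level overlapped that of RPS15. RPL27 was not called (log2 fold change -0.05 ± 0.02 SE, adjusted p = 0.0542 from edgeR). It was called lower in DESeq2 (adjusted p = 0.0225), in limma-voom (0.0260) and after removal of a GC trend (0.00528), among other alternatives. RPL19 had 5464, 5467 and 5367 CPM against 5155, 5166 and 4872 CPM, a difference that passed the test (log2 fold change -0.10 ± 0.03 SE, adjusted p = 0.0315 from edgeR) but not without siTREX1 replicate 1 (0.0542) or without any 1 of the siCtrl libraries (0.0643 to 0.0973).

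At the low end, the level depends on which transcript is listed. Of the 84 genes with an annotated type, 75 list a transcript of the protein-coding type, called coding here. The other 9 list 5 retained-intron, 2 nonsense-mediated decay and 2 processed transcripts. Over all, 45 list the gene's longest coding sequence. RPL10L and RPL39L, paralogs known for expression in testis, are listed at 0 in all 6. RPL3L, a paralog of striated muscle, had 0.81, 0.86 and 0.63 CPM in siCtrl and 0.72, 1.24 and 0.66 CPM in the libraries labelled siTREX1. RPS10 and RPS9, whose listed transcripts are a retained-intron and a nonsense-mediated decay form, had 10.1 to 13.6 CPM and 14.3 to 22.8 CPM. By library, RPS9 had 14.3, 16.7 and 17.8 CPM in siCtrl and 16.6, 22.8 and 14.7 CPM in those labelled siTREX1. RPS7 and RPS26 list coding transcripts. In siCtrl RPS7 had 24.4, 38.0 and 32.7 CPM, against 42.1, 36.3 and 40.3 CPM in the libraries labelled siTREX1. RPS26 had 37.1, 30.4 and 38.2 CPM against 43.1, 48.4 and 41.0 CPM, without overlap. RPS10 had the most negative log2 fold change of the 82, -0.23 ± 0.10 SE, and was not called (adjusted p = 0.138 from edgeR). Its libraries labelled siTREX1 (10.5, 10.9 and 10.1 CPM) lay just below siCtrl (13.6, 12.2 and 11.1 CPM), while the RPS10-NUDT3 readthrough gene, which shares RPS10 exons, was higher, at 207 ± 11.2 against 265 ± 14.9 CPM (SD, n = 3 each, adjusted p = 0.00533 from edgeR).

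Large subunit proteins gave most of the calls, with 24 lower and 2 higher of 43 and a median log2 fold change of -0.10. The share lower was 55.8%, against 15.5% of all tested genes and 23.9% of the 71 other nuclear genes at 1000 CPM or more. Without siTREX1 replicate 1 the counts were 15 lower and 2 higher. RPL3, which lies next to the peptidyl transferase centre, fell furthest among called genes. It had 1568, 1613 and 1634 CPM in siCtrl and 1390, 1401 and 1379 CPM in the libraries labelled siTREX1. The groups were well apart (log2 fold change -0.21 ± 0.02 SE, adjusted p = 0.00111 from edgeR). RPL13A, known in human monocytes for a second role in silencing inflammatory mRNAs, had 2490, 2561 and 2489 CPM against 2254, 2259 and 2206 CPM. That fall was of similar size (log2 fold change -0.17 ± 0.02 SE, adjusted p = 0.00194 from edgeR). RPL12, at the base of the stalk, had 3705, 3693 and 3596 CPM against 3256, 3269 and 3285 CPM, and it fell as much (log2 fold change -0.16 ± 0.02 SE, adjusted p = 0.00139 from edgeR). RPL10, which joins the subunit late in its maturation, had 2834, 2792 and 2839 CPM against 2542, 2581 and 2533 CPM, also a fall (log2 fold change -0.15 ± 0.02 SE, adjusted p = 0.00173 from edgeR). RPL31 had 1224, 1237 and 1302 CPM against 1067, 1185 and 1115 CPM. Its groups did not overlap either, but the call (log2 fold change -0.16 ± 0.04 SE, adjusted p = 0.0358 from edgeR) was lost without any 1 library other than siTREX1 replicate 2 (0.0644 to 0.106), as well as with library sizes alone (0.0594) and under the replicate block (0.0527).

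**Figure D3:**
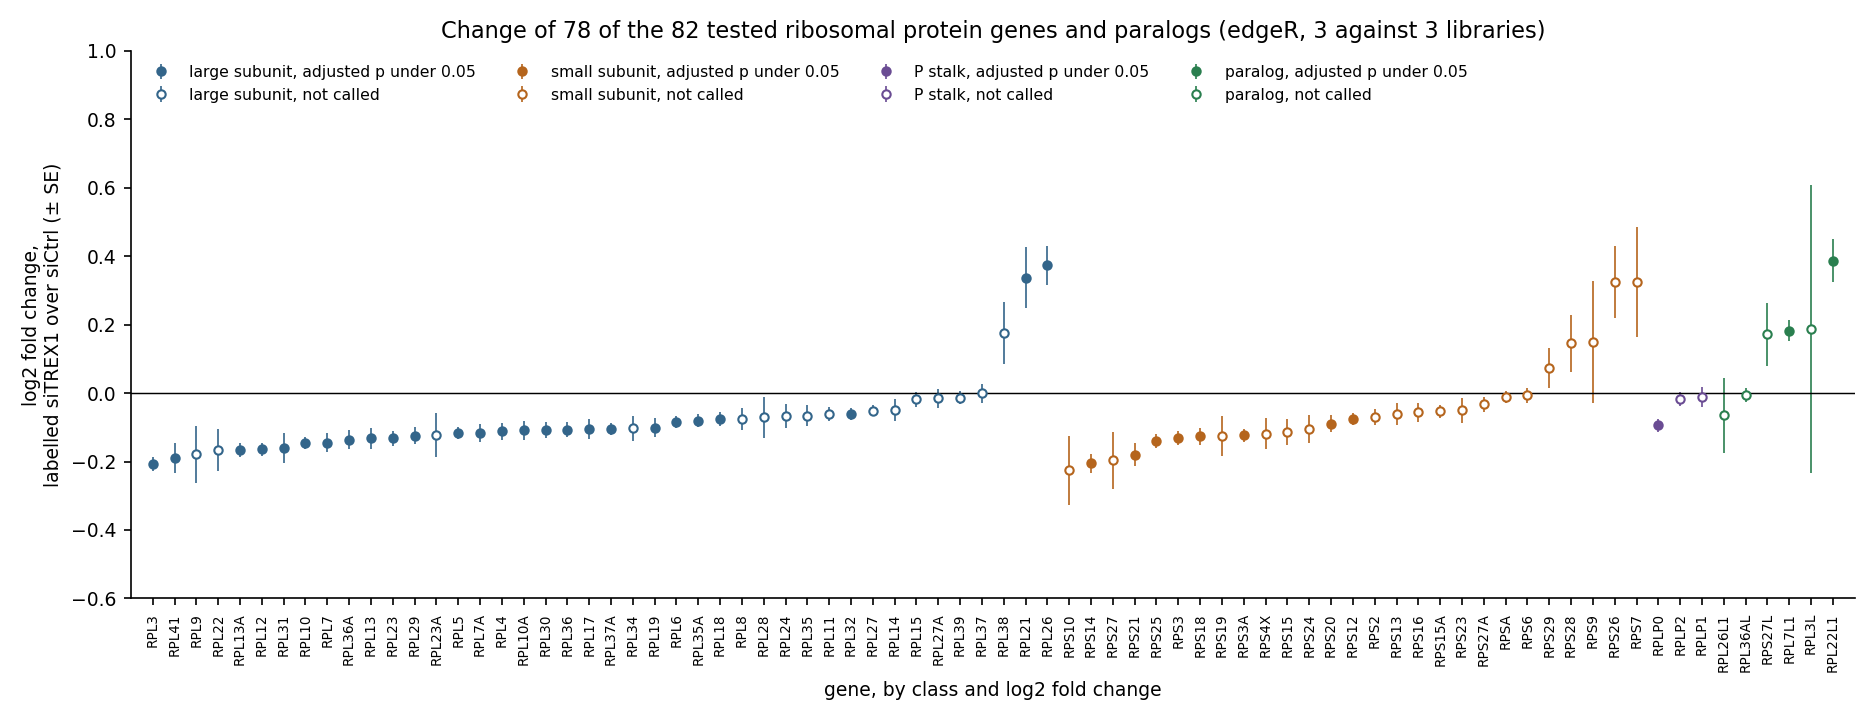
Log2 fold change ± SE of 78 of the 82 tested genes (edgeR, 3 against 3 libraries), ordered within the large subunit, small subunit, P stalk and paralogs, filled where the adjusted p was under 0.05. Filled points of the large subunit lie mostly between -0.21 and -0.06, and the 4 called rises are RPL21, RPL26, RPL7L1 and RPL22L1.

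RPL5 and RPL11 form the 5S ribonucleoprotein with 5S rRNA, which binds MDM2 when ribosome assembly fails. RPL5 had 3100, 3065 and 3045 CPM in siCtrl and 2794, 2861 and 2835 CPM in the libraries labelled siTREX1. It fell (log2 fold change -0.12 ± 0.02 SE, adjusted p = 0.00397 from edgeR), and RPL11, whose groups did not overlap either, had a log2 fold change of -0.06 ± 0.02 SE (adjusted p = 0.0564 from edgeR). RPL11 was called lower in DESeq2 (adjusted p = 0.0294), limma-voom (0.0355), with at least 10 counts in all 6 libraries (0.0434), with coding transcripts only (0.0425) and after removal of a GC trend (0.0132, or 0.0396 with the replicate block). Of 16 tested genes fixed as the 5S and p53 branch, 4 were higher and 4 lower, near the 17.8% and 15.5% of all tested genes, and without siTREX1 replicate 1 it was 2 and 5. By lowest p, those higher were led by RRS1 (log2 fold change 0.83) and HEXIM1 (0.52), and those lower were SESN1 (-1.24), BBC3 (-2.38), NOP53 (-0.24) and CDKN1A (-0.31).

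Of the 30 tested small subunit genes, 9 were lower and 0 higher in edgeR (14 and 1 at an unadjusted p under 0.05, 15 and 1 in DESeq2, 10 and 0 in limma-voom), with a median log2 fold change of -0.08. The 30% lower in edgeR stands against 15.5% of all tested genes and 23.9% of the 71 other nuclear genes at 1000 CPM or more. It was thus near the share among those abundant genes. Leaving out siTREX1 replicate 1 gave 8 lower and 1 higher. The difference between the subunits was not tested. Summed over genes, the ratio of large to small subunit counts was 1.86, 1.84 and 1.84 in siCtrl libraries and 1.84, 1.84 and 1.81 in those labelled siTREX1. RPS14, a protein of the platform whose gene lies in the region lost in 5q- syndrome, had 2261, 2310 and 2227 CPM against 2014, 1983 and 1901 CPM. It was the largest called fall of this subunit (log2 fold change -0.20 ± 0.03 SE, adjusted p = 0.00289 from edgeR). RPS21 had 3908, 4037 and 3795 CPM against 3464, 3562 and 3334 CPM, and it fell nearly as much (log2 fold change -0.18 ± 0.03 SE, adjusted p = 0.00885 from edgeR). RPS19, which is mutated in Diamond-Blackfan anaemia, had 1070, 1070 and 968 CPM against 1016, 903 and 931 CPM, with overlap between groups (log2 fold change -0.12 ± 0.06 SE, adjusted p = 0.158 from edgeR). RPS6, the substrate of the S6 kinases, had 1956, 1883 and 1921 CPM against 1904, 1933 and 1894 CPM (log2 fold change -0.01 ± 0.02 SE). RPSA, also known as the laminin receptor precursor, had 1984, 2008 and 2035 CPM against 1994, 2001 and 1986 CPM, within the siCtrl range (log2 fold change -0.01 ± 0.02 SE). For RPS6 and RPSA, neither of them called, the sign turned positive with library sizes alone. For RPS4X, the X-linked S4 gene, a processed transcript is listed. It had 2179, 2096 and 2282 CPM against 1904, 2056 and 2077 CPM, without overlap and without a call (log2 fold change -0.12 ± 0.05 SE, adjusted p = 0.0914 from edgeR). RPS4X was called lower in DESeq2 (adjusted p = 0.0226) and after removal of a GC trend (0.0343).

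Of the 3 stalk genes, 1 was called, with or without siTREX1 replicate 1. Over all tested genes 15.5% were lower, and 3 genes are too few to set against this share. RPLP0, the anchor of the stalk, had 3087, 3086 and 3026 CPM in siCtrl and 2870, 2916 and 2831 CPM in the libraries labelled siTREX1, a fall without overlap (log2 fold change -0.09 ± 0.02 SE, adjusted p = 0.0114 from edgeR). RPLP1 had 2055, 2125 and 2133 CPM against 2015, 2157 and 2091 CPM, with overlap (log2 fold change -0.01 ± 0.03 SE). RPLP2 had 4394, 4513 and 4584 CPM against 4461, 4428 and 4434 CPM (log2 fold change -0.02 ± 0.02 SE), and removal of a GC trend turned it to 0.10 (adjusted p = 0.0235 from edgeR).

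RPLP0 is of further interest because the study used it, under its older name 36B4, as the reference for RT-qPCR in human cells. Its fall in these libraries was of -6.34%. The primer pair of that assay is shown here since it fixes where the transcript was measured. Both primers match the listed RPLP0 transcript of 1218 nt exactly, at positions 859 to 879 (forward) and 934 to 955 (reverse), a product of 97 nt within chromosome 12 RPLP0 mRNA, and 13 of 27 annotated RPLP0 transcripts hold both, as does 1 processed pseudogene.
36B4 forward: cagattggctacccaactgtt
36B4 reverse: ggaaggtgtaatccgtctccac

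The 4 called rises were of genes under 1000 CPM. RPL26, a large subunit protein that in human cells also binds the p53 mRNA, had 56.1, 61.3 and 61.3 CPM in siCtrl and 76.7, 73.3 and 81.5 CPM in the libraries labelled siTREX1. The groups were well apart (log2 fold change 0.37 ± 0.06 SE, adjusted p = 0.00463 from edgeR). RPL21 had 156, 153 and 179 CPM against 188, 201 and 228 CPM (log2 fold change 0.34 ± 0.09 SE, adjusted p = 0.0313 from edgeR). It was called without siCtrl replicate 3 and without siTREX1 replicate 1, but not without any other 1 library (0.0669 to 0.0997). The level listed for both is far under the median of 2140 CPM of the large subunit genes. The same holds for RPS7 and RPS26, whose log2 fold changes of 0.33 ± 0.16 SE and 0.32 ± 0.11 SE did not pass the test (adjusted p = 0.174 and 0.0591 from edgeR). Of the 19 tested genes under 1000 CPM, 4 were higher (21.1%) and 1 lower (5.26%). Over all tested genes 17.8% were higher and 15.5% lower, so the share of rises was near the general one. The median log2 fold change of the 19 was 0.14. Leaving out siTREX1 replicate 1 gave 5 higher and 1 lower. Whether other transcripts of these genes moved in the same way was not tested, since 1 transcript is listed for each.

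The other 2 rises were paralogs, and 0 of the 6 tested paralogs were lower in edgeR (also 0 at an unadjusted p under 0.05, in DESeq2 and in limma-voom). Over all tested genes 17.8% were higher and 15.5% lower, and 6 genes are too few to set the paralogs apart from these shares. Without siTREX1 replicate 1, 2 paralogs were again higher and 0 lower. RPL22L1, the paralog of RPL22, had 86.2, 78.2 and 75.6 CPM against 102, 101 and 111 CPM (log2 fold change 0.39 ± 0.06 SE, adjusted p = 0.00525 from edgeR). Its listed transcript is annotated as subject to nonsense-mediated decay. RPL22 had 747, 778 and 701 CPM against 703, 668 and 610 CPM, with an overlap of 1 library (log2 fold change -0.17 ± 0.06 SE, adjusted p = 0.0825 from edgeR). RPL22 was called lower in DESeq2 (adjusted p = 0.0106) and under the replicate block (0.0357). RPL7L1, whose yeast relative works in ribosome assembly, had 160, 160 and 156 CPM against 182, 175 and 184 CPM, a rise (log2 fold change 0.18 ± 0.03 SE, adjusted p = 0.00589 from edgeR), while its partner RPL7 fell from 1981, 1997 and 2022 CPM to 1786, 1765 and 1876 CPM (log2 fold change -0.14 ± 0.03 SE, adjusted p = 0.00915 from edgeR). RPS27L, a p53 target in human cells, had 89.2, 87.0 and 92.4 CPM against 109, 86.3 and 108 CPM. Replicate 2 of siTREX1 stood apart from the other 2, at the siCtrl level (log2 fold change 0.17 ± 0.09 SE, adjusted p = 0.208 from edgeR). RPL36AL had 535, 536 and 550 CPM against 543, 540 and 532 CPM, and its partner RPL36A fell from 2892, 2863 and 2924 CPM to 2730, 2603 and 2563 CPM (log2 fold change -0.14 ± 0.03 SE, adjusted p = 0.0113 from edgeR). RPL26L1 had 85.4, 100 and 76.0 CPM against 87.0, 86.2 and 76.1 CPM.

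The level of the paralog relative to its partner did not overlap between groups in 5 of the 6 pairs. Single genes without overlap made up 25.2% (below) and 25.3% (above) of all those tested. RPL22L1 stood at 11.5%, 10.1% and 10.8% of RPL22 in siCtrl and at 14.6%, 15.1% and 18.1% in the libraries labelled siTREX1. RPL7L1 stood at 8.1%, 8.0% and 7.7% of RPL7 against 10.2%, 9.89% and 9.82%. RPL36AL stood at 18.5%, 18.7% and 18.8% of RPL36A against 19.9%, 20.7% and 20.7%. In these 3 pairs the ratio was higher in the libraries labelled siTREX1. RPS27L stood at 74.8%, 77.0% and 84.6% of RPS27 against 113%, 95.3% and 96.2%, where a retained-intron transcript is listed for RPS27. RPL26L1 stood the other way, at 152%, 163% and 124% of RPL26 against 113%, 118% and 93.3%. The transcript listed for RPL26 had a mean of only 59.6 CPM in siCtrl, against a median of 2140 CPM for the large subunit genes. RPL26 was called higher, while RPL26L1 was not called (log2 fold change -0.07, adjusted p = 0.685 from edgeR). RPL3L and RPL3 overlapped. In an exact two-sided permutation test p was 0.1 for each of the 5 pairs, the smallest value 3 against 3 libraries can give, and 0.5 for RPL3L (0.12 and 0.5 after Benjamini-Hochberg adjustment over the 6 pairs). A design of this size cannot pass a threshold of 0.05, so these values say nothing of whether the ratios differ.

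**Figure D4:**
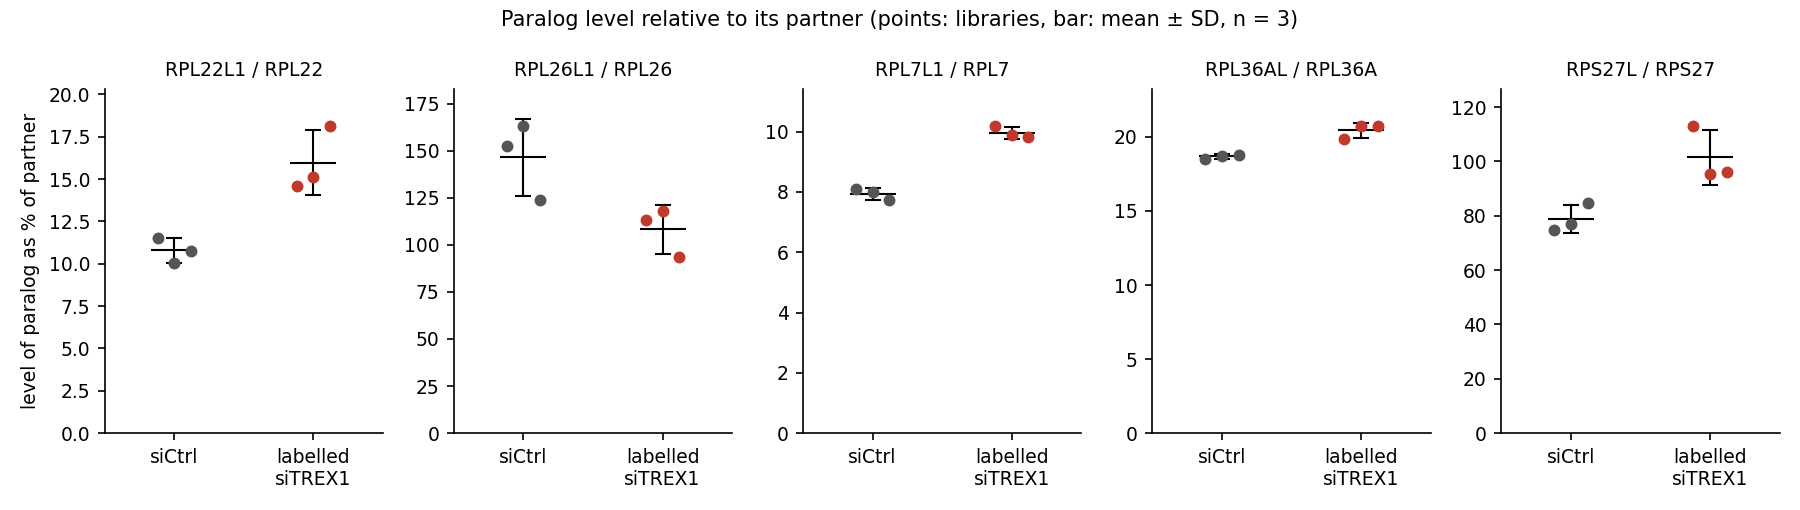
Level of the paralog as a percent of its partner in each library for 5 pairs, with mean ± SD (n = 3 per group) and axes from 0. The libraries labelled siTREX1 lie above siCtrl for RPL22L1, RPL7L1, RPL36AL and RPS27L and below for RPL26L1.

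Copies elsewhere in the genome limit some of these values. The 1231 listed RPL and RPS pseudogenes took 0.581% ± 0.0086 of the counts with siCtrl and 0.559% ± 0.0061 in the libraries labelled siTREX1 (SD, n = 3 each), and most of this was RPL23AP42 (0.473% and 0.451%). RPL23AP42 thus had more counts than RPL23A itself, at 1868, 2096 and 1781 CPM against 1819, 1769 and 1687 CPM, and how the reads of such copies were shared between them cannot be told. Counted together with the pseudogenes, the difference in share of the 85 genes was -0.919 percentage points.

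Genes with and without the motif at the transcript start were among those that fell. Of the 47 tested genes with the motif, 21 were lower and 3 higher, with a median log2 fold change of -0.09. Of the 20 tested genes without it, 7 were lower and 1 higher, with a median of -0.06, and the difference was not tested. The genes without it include paralogs such as RPL7L1 and RPS27L, and 0 of the tested paralogs were lower. The split also rests on the annotated start of each gene. Among ribosomal components outside the symbol rule, FAU, which encodes a ribosomal protein fused to a ubiquitin-like protein, and RACK1, a scaffold on the small subunit, had log2 fold changes of -0.03 and -0.01, neither of them called. Of 22 other mRNAs known to start with the motif, 7 were lower and 0 higher in edgeR (limma-voom and an unadjusted p under 0.05 also gave 7 and 0, and DESeq2 8 and 0). Without siTREX1 replicate 1, 5 were lower and 0 higher. The list had a median level of 996 CPM, and of the nuclear genes at 1000 CPM or more outside the ribosomal genes 23.9% were lower, against 31.8% here. Its median log2 fold change was -0.04, with 5 of the 22 positive and a maximum of 0.55. Those that were lower included the elongation factors EEF1G (-0.15, adjusted p = 0.00158 from edgeR) and EEF1A1 (-0.13, 0.00880), EIF4B (-0.22, 0.00365) and the poly(A)-binding protein PABPC1 (-0.33, 0.00638).

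Genes for the assembly of ribosomes were more often higher than lower. Of 104 tested assembly factors, 60 were higher and 5 lower, and the median log2 fold change was 0.25. Among those higher were RRS1, which loads the 5S particle (log2 fold change 0.83, adjusted p = 0.000103 from edgeR), LTV1, a small subunit export factor (0.58, 0.000136), and the box C/D protein NOP56 (0.73, 0.000252). Without siTREX1 replicate 1, 51 were higher and 4 lower. Of 17 tested genes of RNA polymerase I and rRNA transcription, 5 were higher and 1 lower, or 5 and 2 without siTREX1 replicate 1, with UBTF at 0.83 (adjusted p = 0.00125 from edgeR) and RRN3 at 0.61 (0.00153). Of 42 translation factors, 11 were higher and 9 lower, or 10 and 6 without siTREX1 replicate 1, among them the helicase paralogs EIF4A1 (0.23, 0.000648) and EIF4A2 (-1.18, 2.6e-05). Of 25 genes of the mTORC1, LARP1 and S6 kinase control of TOP mRNAs, 2 were higher and 5 lower, or 1 and 4 without siTREX1 replicate 1. For comparison with the count of ribosomal proteins, 15.5% of all tested genes were lower and 17.8% higher.

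**Figure D5:**
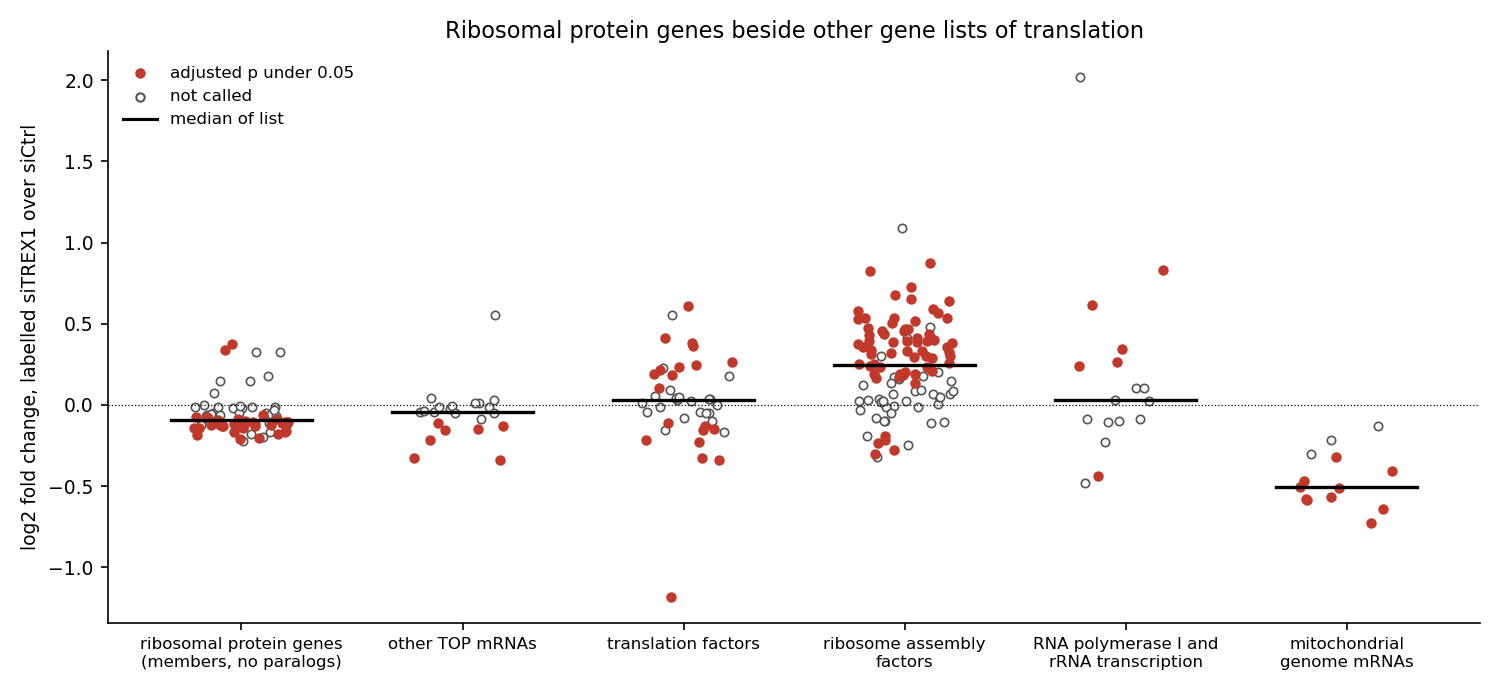
Log2 fold change of each tested gene of the ribosomal proteins (paralogs left out) and of 5 gene lists, red where the adjusted p was under 0.05, with the median of each list as a bar. The ribosomal proteins form a narrow band just below 0, the 104 assembly factors have their median at 0.25 and the 13 mitochondrial genome mRNAs at -0.50.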

How the data were processed

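Estimated counts were made by the authors from kallisto output with tximport (scaledTPM), which are scaled to library depth and free of transcript length. The deposited table holds 1 transcript per gene symbol. The processing notes also name hg19 and FastQC, while the version of kallisto and its annotation are not stated there. A line without symbol (0.0925% to 0.109% of counts) was left out. Here the counts were rounded, filtered with filterByExpr (minimum count 10), scaled by TMM and compared by the robust quasi-likelihood test of edgeR 4.0.16 (R 4.3.3), adjusted over all 13221 tested genes, with calls at an adjusted p under 0.05. CPM are TMM-scaled, and SE is the log2 fold change over the root of F. The script was tested on simulated data. Transcript types, lengths and GC came from GENCODE 29 (GRCh38), without conversion of coordinates, and start sequences from RefSeq.

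The ribosomal genes and all lists were chosen with earlier results of these data known. Values in every library are given for the stalk genes, RPSA, paralogs and partners, RPS4X, RPL5, RPL11, RPS6, RPS19, the 5 highest and 5 lowest levels, and the called genes that changed most (up to 8 a direction), and of each list up to 4 genes a direction are named by p. Some of the genes counted are not reported here by name. Library pairs within a group differed by a chi-square of 6.76 to 10.5 per degree of freedom. This value, taken on estimated counts, cannot tell separate cultures from libraries made of the same RNA. Each library was counted as 1 sample. Alternatives were RLE factors, library sizes alone, TMM without the ribosomal and mitochondrial genes, other count filters, DESeq2 1.42.0, limma-voom (limma 3.58.1), a replicate block, a GC trend removed, coding transcripts only, and leaving out each library.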

Additional observations from a re-analysis of the deposited data

How the results depend on the processing

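The number of ribosomal genes that were lower stayed between 28 (library sizes alone) and 45 (DESeq2) under all alternatives with 6 libraries, and between 24 and 32 with 1 library left out. The number higher was 4 or 5 with 6 libraries, except 7 after removal of a GC trend, where RPL8 and RPLP2 were among those that joined, and 3 to 5 with 1 library left out. In every fit 18 genes were lower (among them RPL3, RPL5, RPL6, RPL7, RPL10, RPL12, RPL13A, RPL23, RPL30, RPL36A, RPL37A, RPLP0, RPS3, RPS3A, RPS14, RPS21 and RPS25) and 2 higher (RPL7L1 and RPL26). RPL4 and RPS18 could not be in every fit, since the fit of coding transcripts does not hold them, and RPL22L1 was called in every fit that held its nonsense-mediated decay transcript. The median log2 fold change was -0.063 with library sizes alone and -0.07 to -0.09 with 1 library left out. The number of assembly factors that were higher, for which alternatives were added after the data were seen, was 51 to 67. The counts of the other groups without siTREX1 replicate 1 were also added then. The difference in share was -1.30 points outside the mitochondrial genome and -0.931 to -0.865 points with 1 library left out.

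Small differences that were not called changed sign. With library sizes alone the log2 fold changes were 0.012 for RPL36AL, 0.0046 for RPL39, 0.0070 for RPLP1, 0.00022 for RPLP2, 0.011 for RPS6 and 0.0072 for RPSA. After removal of a GC trend they were 0.0995 for RPLP2 and 0.0303 for RPS15, and with the replicate block added 0.0992 and 0.0305. With 1 library left out, RPS6 ran from -0.020 to 0.0065, RPL26L1 from -0.16 to 0.044, RPL36AL from -0.012 to 0.0073, RPLP1 from -0.033 to 0.016, RPL39 from -0.025 to 0.00018, RPL3L from -0.14 to 0.35 and RPS9 from -0.051 to 0.28. The causes were not tested.

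Whether the replicate numbers pair the libraries cannot be told. Correlations of deviations from the group means over all tested genes were small, at 0.0188, 0.0339 and 0.0292 for equal numbers. Each library nevertheless correlated best with its own number, and small values over all genes do not exclude a pairing for some genes. With the replicate block 31 ribosomal genes were lower and 5 higher, with a median log2 fold change of -0.08. Each of the 82 genes rests on a single listed transcript, which limits what the levels of those under 1000 CPM say of the whole gene.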

Other observations

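RPL28, RPL9 and RPS27 had log2 fold changes of -0.07, -0.18 and -0.20 without a call, at 598, 207 and 114 CPM in siCtrl. By library, RPS27 had 119, 113 and 109 CPM in siCtrl and 96.1, 90.5 and 112 CPM in the libraries labelled siTREX1. RPS27 was called lower in DESeq2 (adjusted p = 0.0432). RPL38, a large subunit protein, had 1854, 1863 and 2313 CPM in siCtrl and 2247, 2201 and 2361 CPM in the libraries labelled siTREX1, so that siCtrl replicate 3 lay apart from the other 2, within the range of the siTREX1 libraries, and its coefficient of variation of 13.0% was the highest among the genes with at least 1000 CPM. RPS29, a small subunit protein, had 3981, 4189 and 4450 CPM against 4210, 4316 and 4755 CPM, and RPL38 and RPS29 were the only 2 of those 63 genes with a positive log2 fold change under TMM scaling (0.18 ± 0.09 and 0.07 ± 0.06 SE).

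The genes examined are spread over 21 chromosomes, with 12 on chromosome 19 and 9 on chromosome 3. Across the 81 tested genes with an annotated transcript, Spearman's rho of the log2 fold change was -0.10 with GC content and 0.07 with transcript length, and over the 82 tested it was -0.20 with level. These correlations are across genes of the same 6 libraries and are given as a description.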
